A study of Homo sapiens with 6 samples.

Results

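The expression of histone genes was examined in SW480, an established cell line from a human colorectal adenocarcinoma that the labels give as wild type, after 24 h of MPM-1 or DMSO. MPM-1, called WT4 in the sample labels, is a fluorescent small molecule that collects in mitochondria, and DMSO is its solvent and served as the control. RNA was sequenced in 3 libraries per treatment, which carry the same cell line and differ in the treatment alone. The labels do not say whether the 3 libraries came from separate cultures, so the p-values below measure the spread between these libraries, which may be technical. No dose is given for this experiment in the sources used here. The histone genes were the rows of the deposited table whose symbol begins with HIST1H, HIST2H, HIST3H, HIST4H, H1F, H2AF, H2BF or H3F3. This rule gave 22 of 12982 genes, of which 13 were clustered histone genes (HIST symbols) and 9 were replacement variants (all others).

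Histones are the small basic proteins on which DNA is wound. Copies of H2A, H2B, H3 and H4 form the core of the nucleosome, and linker histones of the H1 family bind the DNA between nucleosomes. The clustered genes lie together in the genome, are mostly transcribed in S phase to package newly made DNA, and give transcripts that end in a conserved stem-loop instead of a poly(A) tail. The stem-loop is bound by SLBP, which guides the processing, translation and turnover of these transcripts. Several clustered genes can also give polyadenylated transcripts, which are known from cells that have left the cycle. Replacement variants are mostly transcribed through the cycle from dispersed genes, most of which have introns, and their transcripts are mostly polyadenylated.

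The library kit named in the labels is one for mRNA, and whether poly(A) tails were selected is not stated. GENCODE release 29 annotates 71 protein-coding clustered genes by the same symbols, of which 13 (18.3%) were in the table, and 20 replacement genes, of which 9 (45.0%) were. A poly(A) signal (AATAAA or ATTAAA) within the last 40 bases of an annotated coding transcript was found in 22 of the 71 clustered genes. Of these 22, 9 (40.9%) were in the table, against 4 of the 49 (8.16%) without such a signal. A model that ends at the stop codon cannot show the signal, and 3 of these 4 genes have such models, so a missing signal and a missing annotated 3′ end cannot be told apart here. The clustered genes in the table were therefore few of those annotated, and the others were not analysed here. By histone type they comprised 1 of 6 annotated H1 genes, 5 of 17 H2A genes, 4 of 18 H2B genes, 2 of 15 H3 genes and 1 of 15 H4 genes.

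The stem-loop is shown here because it is the mark of the clustered class and because a transcript with a poly(A) tail runs on past it. It was searched in the annotated coding transcripts as GGNNNTTTNNANNNCC, a stem of 6 paired bases around a loop of 4, with every stem base paired to its partner. It was found in 30 of the 71 clustered genes (42.3%), in 9 of the 13 in the table, in 1 of the 9 replacement variants in the table, and in 0.285% of all 19659 protein-coding genes. Transcripts annotated from the start to the stop codon alone, as those of HIST1H1C, HIST1H2BK and HIST2H2AC were, cannot show it. The sequences below are DNA letters of GENCODE release 29 transcripts, 5′ to 3′, with the stem-loop in capitals and 5 flanking bases on each side in lower case.
HIST2H2BE: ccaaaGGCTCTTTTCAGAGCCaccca
HIST2H2AA3: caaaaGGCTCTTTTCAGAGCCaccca
HIST1H2AC: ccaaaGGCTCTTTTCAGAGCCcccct
HIST1H2BD: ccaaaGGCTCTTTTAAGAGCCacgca
HIST1H4I: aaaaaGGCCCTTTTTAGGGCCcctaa
H2AFX: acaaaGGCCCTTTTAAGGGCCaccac
The annotated transcripts ran on for 1729 bases past the stem-loop in HIST2H2BE, 1114 in HIST1H2AC, 1044 in H2AFX, 769 in HIST1H3H, 390 in HIST3H2A, 377 in HIST1H2BN and 212 in HIST1H4I, and for 35 to 39 bases in HIST2H2AA3, HIST2H2AA4 and HIST1H2BD. H2AFX, which encodes the H2A.X variant phosphorylated at DNA breaks, was the only replacement variant with a match.

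Total counts per library were between 32095456 and 40269820 for DMSO and between 31733667 and 35403841 for MPM-1. Levels are given as CPM, that is, counts relative to the TMM-adjusted total of their library. A gene at 0 could still have had 3 counts by counting error alone, which is between 0.0695 and 0.0985 CPM, and no histone gene was at 0 in any library. Of 7 epithelial markers (EPCAM, KRT8, KRT18, KRT19, CDX2, CDH1 and VIL1) all 7 were in the table, where 4 rose after MPM-1, EPCAM did not pass, and VIL1 and CDX2 fell (CDX2 from 20.8 ± 1.24 to 4.07 ± 1.03 FPKM, SD, n = 3 each). Of 7 markers of blood, endothelium and fibroblasts, CD14 and COL1A1 were in the table, where both fell and the highest library had 5.37 and 0.51 FPKM. The edgeR quasi-likelihood test was run over all 12982 genes with Benjamini-Hochberg adjustment, which gave every adjusted p below, and a gene is said to rise or fall at an adjusted p under 0.05. Log2 fold changes (MPM-1 over DMSO) are given ± their standard error, and levels ± SD. At this threshold 56.5% of all genes passed, 27.7% higher and 28.8% lower after MPM-1. Scaling moved this split, and with library size alone 34.7% of the passing genes were higher, against 49.0% with TMM.

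The clustered histone genes were mostly higher after MPM-1. Of 13 genes 9 rose, none fell and 4 did not pass, against the 27.7% of all genes that rose. Their median log2 fold change was 1.46, against -0.026 over all genes. At a stricter limit (adjusted p under 0.01 and an absolute log2 value of 1 or more), 8 of the 13 were higher and none lower, against 5.58% and 8.75% of all genes. The 9 that rose were also those in which all 3 MPM-1 libraries lay above all 3 DMSO libraries, which was so for 31.0% of all genes. By type, the risers were the H1 gene, 4 of 5 H2A genes, 3 of 4 H2B genes and the H4 gene, and neither of the H3 genes passed.

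**Figure D1:**
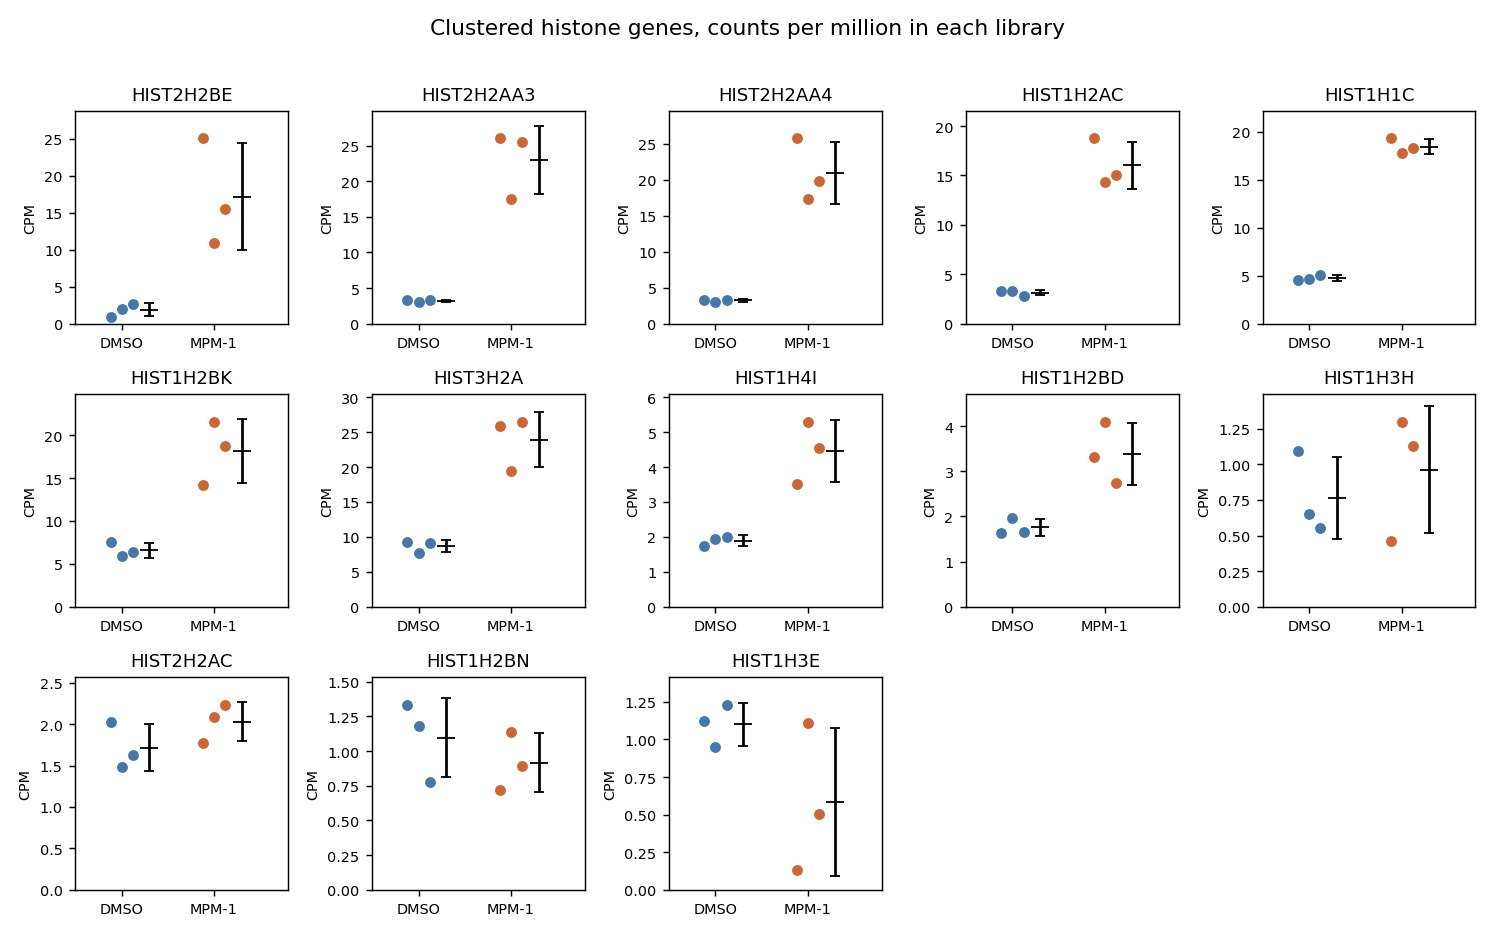
CPM (vertical axis of each panel, from 0) of the 13 clustered histone genes in the 3 DMSO libraries (blue) and 3 MPM-1 libraries (orange), ordered by log2 fold change, with replicates 1 to 3 from left to right and the mean ± SD in black. In the first 9 panels every MPM-1 library lies above every DMSO library, and in the last 4 the libraries overlap.

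HIST2H2BE (ENSG00000184678, chromosome 1, 149884459 to 149886652, minus strand, GRCh38), which encodes a core H2B, had the largest fold change of the histone genes. It was at 0.91, 1.99 and 2.64 CPM in DMSO replicates 1, 2 and 3, and at 25.0, 10.9 and 15.5 CPM in MPM-1 replicates 1, 2 and 3. All MPM-1 libraries were above all DMSO libraries, but both groups were spread widely. The log2 fold change was 3.20 ± 0.40 (adjusted p = 0.000136 from the edgeR test), a 9.19-fold rise. On log2(FPKM + 1), which understates low genes, it was 2.10.

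HIST2H2AA3 and HIST2H2AA4 encode the same core H2A and lie 8324 bases apart on opposite strands of chromosome 1 (149842188 to 149842736 and 149851061 to 149851624). The 549 bases of the HIST2H2AA3 transcript are all contained in that of HIST2H2AA4, so reads cannot be told apart and the counting may have shared them. HIST2H2AA3 had 109, 130 and 131 counts in DMSO and 793, 539 and 859 after MPM-1. HIST2H2AA4 had 110, 130 and 131 counts in DMSO and 783, 534 and 664 after MPM-1. The copies thus differed by no more than 10 counts in 5 libraries and by 195 in MPM-1 replicate 3. With both summed into 1 gene, a choice made after seeing the data, there were 219, 260 and 262 counts in DMSO and 1576, 1073 and 1523 after MPM-1. The log2 fold change of the sum was 2.78 ± 0.15 (adjusted p = 1.21e-06 from edgeR), beside 2.85 and 2.71 for the separate rows. Counted so, 8 of 12 clustered genes rose.

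HIST1H2AC (ENSG00000180573, chromosome 6, 26124145 to 26139116, plus strand), another core H2A gene, was at 3.34, 3.26 and 2.81 CPM in DMSO and at 18.7, 14.3 and 15.1 CPM after MPM-1. The groups were far apart relative to the spread within them, and the gene rose 5.11-fold (log2 fold change 2.35 ± 0.18, adjusted p = 6.45e-06, and 1.75 on the log2(FPKM + 1) scale). HIST3H2A (chromosome 1, 228456979 to 228457873, minus strand), the H2A gene of a small cluster on the same chromosome arm as H3F3A, was at 9.25, 7.66 and 9.16 CPM in DMSO and at 25.8, 19.4 and 26.5 CPM after MPM-1, with a log2 fold change of 1.46 ± 0.16 (adjusted p = 5.28e-05).

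HIST1H1C (ENSG00000187837, chromosome 6, 26055787 to 26056428, minus strand) encodes the linker histone H1.2 and was the only clustered H1 gene in the table. It was at 4.58, 4.63 and 5.10 CPM in DMSO and at 19.3, 17.8 and 18.3 CPM after MPM-1, with little spread in either group. Its log2 fold change was 1.95 ± 0.14 (adjusted p = 5.18e-06), a 3.87-fold rise.

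HIST1H2BK (chromosome 6, 27146418 to 27146798, minus strand), a core H2B gene, had the highest level per length of the clustered genes in DMSO, at 17.6 ± 1.98 FPKM. After MPM-1 it was at 43.9 ± 9.79 FPKM, within the spread of HIST2H2AA3 at 38.4 ± 7.42 FPKM (SD, n = 3 each). It was at 7.55, 5.88 and 6.33 CPM in DMSO and 14.2, 21.6 and 18.8 CPM after MPM-1, with MPM-1 replicate 1 the lowest of its group. The log2 fold change was 1.47 ± 0.19 (adjusted p = 0.000147). HIST1H4I (27138588 to 27139881, plus strand), the H4 gene, went from 1.73, 1.95 and 2.01 to 3.51, 5.30 and 4.56 CPM, a log2 fold change of 1.23 ± 0.24 (adjusted p = 0.00204). A longer RefSeq model of HIST1H2BK runs across HIST1H4I on the other strand. The counting is not stated to use strand, so reads of such a transcript and of HIST1H4I cannot be told apart and the value of HIST1H4I is uncertain. In HIST1H2BK and HIST1H4I, replicate 1 was the lowest and replicate 2 the highest of the MPM-1 libraries. The order was the same in HIST1H3H, HIST1H2BN and HIST1H3E, so it was not particular to this pair. HIST1H2BD (26158146 to 26171349, plus strand), an H2B gene, rose least of the 9, from 1.64, 1.97 and 1.66 to 3.32, 4.10 and 2.74 CPM. Its log2 fold change was 0.94 ± 0.26 (adjusted p = 0.0118), short of the stricter limit. HIST1H2BD overlaps LARP1P1 on the same strand and AL353759.1 on the other, and its reads are uncertain for that reason.

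The 4 clustered genes that did not pass were low in CPM. Level did not set HIST2H2AC apart, at a mean of 1.72 CPM in DMSO beside 1.75 CPM for HIST1H2BD, which rose. HIST2H2AC, an H2A gene, was at 2.03, 1.48 and 1.63 CPM in DMSO and 1.77, 2.08 and 2.23 CPM after MPM-1 (log2 fold change 0.25 ± 0.28, adjusted p = 0.470). HIST1H3H, the H3 gene with the higher FPKM, had 36, 28 and 22 counts in DMSO and 14, 40 and 38 after MPM-1, with the lowest library and the highest both in the MPM-1 group (0.35 ± 0.47, adjusted p = 0.549). HIST1H2BN had 44, 51 and 31 counts in DMSO and 22, 35 and 30 after MPM-1 (-0.25 ± 0.36, adjusted p = 0.574). HIST1H2BN spans HIST1H2AK, HIST1H2AL and a pseudogene, and its reads are uncertain for that reason. HIST1H3E, a core H3 gene, had 37, 41 and 49 counts in DMSO and 4, 34 and 17 after MPM-1, so that MPM-1 replicate 2, at 1.11 CPM, lay within the DMSO range of 0.949 to 1.23 CPM and the other replicates below it. Its log2 fold change was -0.92 ± 0.57 (adjusted p = 0.200), and without MPM-1 replicate 2 it was -1.73 with an adjusted p of 0.0280. That these 4 genes did not pass does not show that they stayed the same.

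The ratio of count to FPKM, with the library's total, gives the transcript length that the FPKM was computed with. In the 13 histone genes with 1 annotated coding transcript it gave 0.987 to 1.07 of the length in GENCODE. For HIST2H2AC it gave 402 to 408 bases, beside a model of 390 bases that holds only the coding sequence, for HIST1H2BK 392 to 396 beside 381, and for HIST1H1C 662 to 669 beside 642. Reads outside the coding sequence of these 3 genes may therefore not be in their counts. For HIST1H3E, whose annotated transcripts have 462 and 2679 bases, the implied length was 2588 to 2821 bases in the DMSO libraries, and 519, 2709 and 1156 bases in MPM-1 replicates 1, 2 and 3. The length behind its FPKM thus differed between libraries, and its level per length is uncertain. HIST1H3E was not alone in this, as the implied length also varied in HIST1H2BN (1828 to 2914 bases) and HIST1H2BD (715 to 814 bases).

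The rule took the clustered genes by symbol prefix, and the prefix goes with position. The HIST1H genes lay on chromosome 6 and the HIST2H and HIST3H genes on chromosome 1, so a split by chromosome restates the prefix. The genes lay in the chromosome 6 cluster (8 genes, 5 of which rose, median log2 fold change 1.09) and on chromosome 1 (5 genes, 4 of which rose, median 2.71). The chromosome 1 median is the value of HIST2H2AA4, and it counts both HIST2H2AA3 and HIST2H2AA4, whose reads cannot be told apart. Those with a poly(A) signal at the end of an annotated coding transcript comprised 9 genes, of which 6 rose (median 1.46), and those without one comprised 4, of which 3 rose (median 1.35). Of the 4 without a signal, HIST1H1C, HIST1H2BK and HIST2H2AC have models that end at the stop codon and could not show one. Neither split was tested, and the medians rest on few genes.

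HIST2H2BE and HIST2H2AC stand head to head on opposite strands with 322 bases between them, and their promoter windows in RefSeq (250 bases before to 50 after the start) share 265 bases. The promoter of HIST2H2BE is shown because its window overlaps that of HIST2H2AC, and HIST2H2BE rose while HIST2H2AC did not pass. HIST2H2BE has a model of 2194 bases and HIST2H2AC one of 390 bases that holds only the coding sequence. Reads of HIST2H2AC outside that sequence may therefore not be in its counts. Both promoters below are given 5′ to 3′ on the strand of the named gene, from RefSeq on GRCh38.p14. Capitals mark matches on either strand to the octamer ATTTGCAT, the TATA box TATAAA and the CCAAT box CCAAT, and no matches of different motifs overlapped in any of the 28 windows of the histone genes.
HIST2H2BE, chr1:149886633-149886932, minus strand: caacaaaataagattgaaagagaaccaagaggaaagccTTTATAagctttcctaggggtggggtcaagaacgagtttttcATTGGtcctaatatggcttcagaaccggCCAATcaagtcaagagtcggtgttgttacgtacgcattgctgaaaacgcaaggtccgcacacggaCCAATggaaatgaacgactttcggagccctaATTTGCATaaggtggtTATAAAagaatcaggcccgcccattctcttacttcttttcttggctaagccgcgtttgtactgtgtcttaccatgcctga
HIST1H2AC, chr6:26123922-26124221, plus strand: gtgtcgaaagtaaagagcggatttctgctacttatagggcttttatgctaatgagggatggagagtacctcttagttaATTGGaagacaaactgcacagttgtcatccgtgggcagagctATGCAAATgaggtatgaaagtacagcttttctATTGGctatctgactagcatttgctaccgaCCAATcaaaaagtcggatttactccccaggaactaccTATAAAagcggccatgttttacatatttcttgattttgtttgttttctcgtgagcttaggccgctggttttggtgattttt
The octamer was present in the promoters of 4 of the 13 clustered genes (HIST2H2BE, HIST2H2AC, HIST1H2AC and HIST1H2BK) and in 1.77% of all 35116 promoter windows in RefSeq. The match of HIST2H2BE and that of HIST2H2AC are the same bases of the shared stretch, so the 4 genes hold 3 separate matches. A gene was counted if any of its windows matched, and HIST1H2BD, HIST1H2BK and HIST1H3E had 2 windows each. The TATA box was in 9 of 13, against 11.5% of all, and the CCAAT box in 13 of 13, against 34.6%. These counts also rest on fewer distinct sequences. The windows of HIST2H2AA3 and HIST2H2AA4 are identical over 299 of 300 bases, and HIST2H2BE and HIST2H2AC share 265 bases. Of the replacement variants 8 had a promoter entry, with the octamer in 1, the TATA box in 4 and the CCAAT box in 6. These are matches of letters and not sites of binding, and their part in the changes of the histone genes was not tested.

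Within each library, the log2 ratio of the counts of HIST2H2BE to those of HIST2H2AC was -1.16, 0.43 and 0.69 in DMSO and 3.82, 2.39 and 2.80 after MPM-1. Every MPM-1 library was above every DMSO library, by a mean difference of 3.02. Reads of HIST2H2AC outside its coding sequence may not be in its counts, so the size of this ratio is uncertain. This ratio, and those of other gene pairs below, were formed after the values were seen and are descriptions. An exact two-sided permutation test gave p = 0.10 for each, the smallest that 3 libraries against 3 can give. Any ratio whose groups do not overlap gives this value, so the test adds nothing to the separation itself.

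Summed over the 13 clustered genes, the level was 41.2, 37.6 and 40.5 CPM in the DMSO libraries and 165, 134 and 152 CPM in the MPM-1 libraries. Summed over the 9 replacement variants it was 2325, 2254 and 2272 CPM in DMSO and 2387, 2234 and 2208 CPM after MPM-1. The first sum was higher in every MPM-1 library, and the second overlapped between treatments on this TMM scale. By FPKM the replacement sum was lower in every MPM-1 library, at 1396, 1376 and 1334 against 1645, 1633 and 1678 in DMSO. The clustered genes thus made up 1.71% ± 0.0599 of all histone counts in DMSO and 6.18% ± 0.456 after MPM-1 (SD, n = 3 each). By FPKM, which is scaled for length, the clustered share was 3.48% ± 0.156 and 12.6% ± 0.609. These sums and shares cover only the 13 clustered genes in the table, of 71 annotated. Whether poly(A) tails were selected is not stated, so they do not give the share among all histone transcripts of the cells.

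**Figure D2:**
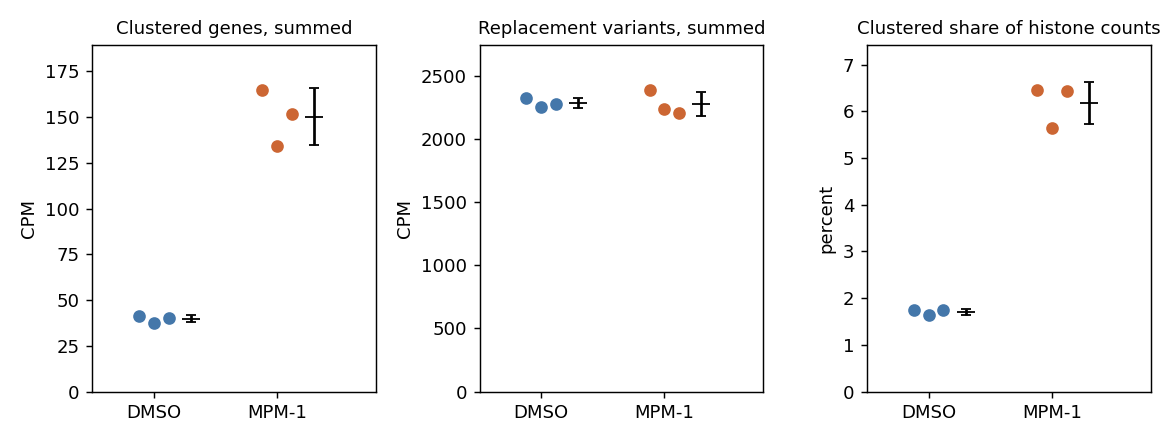
Summed CPM of the 13 clustered genes (left) and the 9 replacement variants (middle), and the clustered share of all histone counts in percent (right), in each library, with the mean ± SD in black and vertical axes from 0. The clustered sum lies between 37.6 and 41.2 CPM in DMSO and between 134 and 165 CPM after MPM-1, while the replacement sums of the treatments overlap on this TMM scale, unlike their sums by FPKM.

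The replacement variants moved in both directions. Of 9 genes 2 rose, 4 fell and 3 did not pass, against the 27.7% and 28.8% of all genes. The libraries of the treatments did not overlap in 7 of the 9, against 64.3% of all genes, with 2 higher (31.0% of all genes) and 5 lower (33.3%). Their median log2 fold change was -0.14, and 1 of them, H1F0, passed the stricter limit, as higher. The change of the clustered genes and that of the replacement variants are set side by side here without a test of the difference between the classes.

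**Figure D3:**
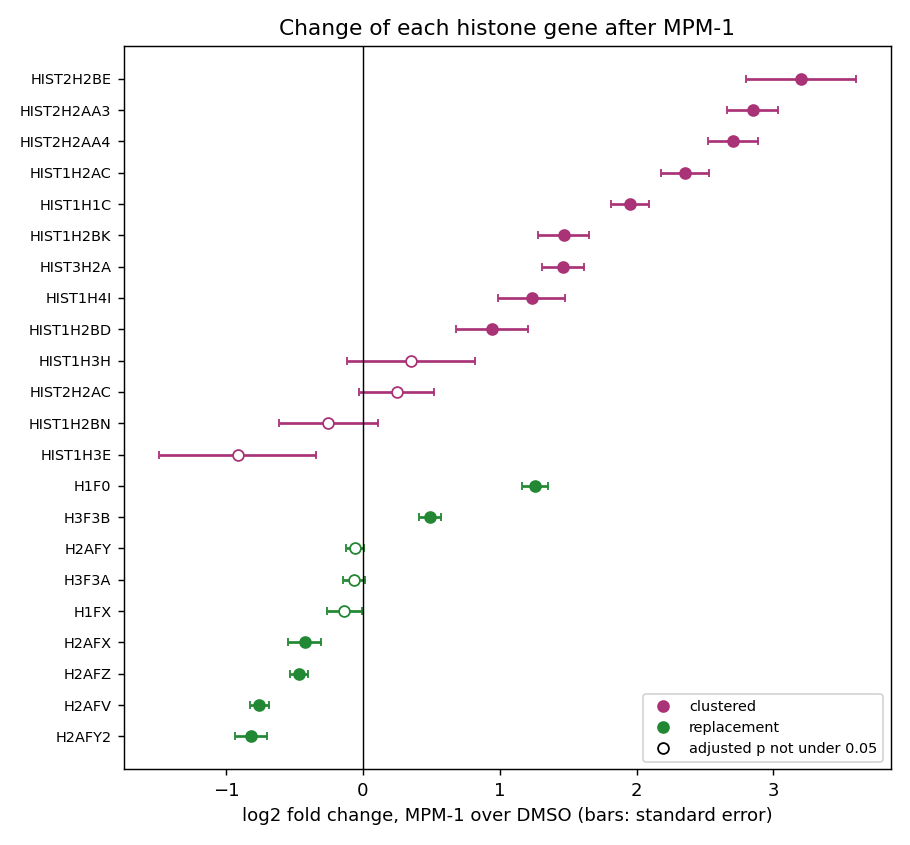
Log2 fold change of each histone gene after MPM-1 against DMSO (horizontal axis), with its standard error, for the clustered genes (purple) and the replacement variants (green). Open circles mark genes with an adjusted p not under 0.05. The 9 clustered genes that rose lie between 0.94 and 3.20, and the replacement variants lie between -0.82 and 1.26.

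Among linker histones, H1F0 (ENSG00000189060, chromosome 22, 37805093 to 37807436, plus strand) encodes H1.0, a linker histone known to build up in differentiated and non-dividing cells. It was at 124, 139 and 138 CPM in DMSO and at 360, 305 and 294 CPM after MPM-1, with the groups well apart. The log2 fold change was 1.26 ± 0.095 (adjusted p = 6.80e-06), a 2.39-fold rise. H1FX, which encodes H1.10, was at 144, 135 and 135 CPM in DMSO and 150, 99.9 and 127 CPM after MPM-1. These libraries overlapped, and its log2 fold change of -0.14 ± 0.13 (adjusted p = 0.392) became 0.03 without MPM-1 replicate 2. The log2 ratio of H1F0 to H1FX counts went from -0.21, 0.04 and 0.03 in DMSO to 1.27, 1.61 and 1.21 after MPM-1, and the groups did not overlap.

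The genes of H2A.Z, a variant found at promoters and enhancers, both fell. H2AFZ (ENSG00000164032, chromosome 4, 99948086 to 99950388, minus strand), which encodes H2A.Z.1, had the highest FPKM of the histone genes in both treatments. It was at 635, 620 and 671 CPM in DMSO and 460, 479 and 455 CPM after MPM-1, a log2 fold change of -0.47 ± 0.067 (adjusted p = 0.000301). H2AFV (ENSG00000105968, chromosome 7, 44826791 to 44848083, minus strand), which encodes H2A.Z.2, was at 215, 213 and 205 CPM in DMSO and 127, 126 and 122 CPM after MPM-1. Its log2 fold change was -0.76 ± 0.068 (adjusted p = 1.95e-05). The sum of both was 853 ± 22.2 CPM in DMSO and 589 ± 14.4 CPM after MPM-1 (SD, n = 3 each).

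The other H2A variants were lower or did not pass. H2AFX was at 44.0, 46.0 and 54.1 CPM in DMSO and 30.6, 40.8 and 35.9 CPM after MPM-1, so that the groups were close but did not overlap. Its log2 fold change was -0.43 ± 0.12 (adjusted p = 0.0140), and the call was lost without DMSO replicate 3 (-0.33, adjusted p = 0.0587). Of the macroH2A genes, whose products carry a large extra domain and are known from silent chromatin, H2AFY2 (macroH2A2) fell and H2AFY (macroH2A1) did not pass. H2AFY2 was at 29.9, 32.6 and 31.1 CPM in DMSO and 18.2, 19.9 and 15.2 CPM after MPM-1 (log2 fold change -0.82 ± 0.12, adjusted p = 0.000313), and it overlaps AIFM2 on the other strand. H2AFY was at 317, 332 and 317 CPM in DMSO and 313, 310 and 305 CPM after MPM-1 (log2 fold change -0.057 ± 0.066, adjusted p = 0.482), with the MPM-1 libraries all lower by a narrow margin.

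H3F3A and H3F3B encode the same protein, H3.3, the H3 variant laid down outside replication. H3F3B (ENSG00000132475, chromosome 17, 75776434 to 75785893, minus strand) rose, from 366, 331 and 333 CPM in DMSO to 523, 449 and 476 CPM after MPM-1 (log2 fold change 0.49 ± 0.081, adjusted p = 0.000701). It overlaps UNK on the other strand. H3F3A (chromosome 1, 226061851 to 226072001, plus strand) was at 450, 406 and 387 CPM in DMSO and 406, 405 and 378 CPM after MPM-1, with overlapping libraries (log2 fold change -0.064 ± 0.078, adjusted p = 0.507). The log2 ratio of H3F3B to H3F3A counts was -0.30, -0.29 and -0.21 in DMSO and 0.37, 0.15 and 0.33 after MPM-1, so that H3F3A had more counts in every DMSO library and H3F3B in every MPM-1 library. Scaled for length, H3F3A stayed above H3F3B in both, at 374 ± 9.77 and 133 ± 3.71 FPKM in DMSO and 331 ± 11.9 and 173 ± 10.4 FPKM after MPM-1. With scaling by library size alone, under which the median over all genes was -0.18, H3F3A (-0.21, adjusted p = 0.0265) and H2AFY (-0.21, adjusted p = 0.0208) passed as lower.

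**Figure D4:**
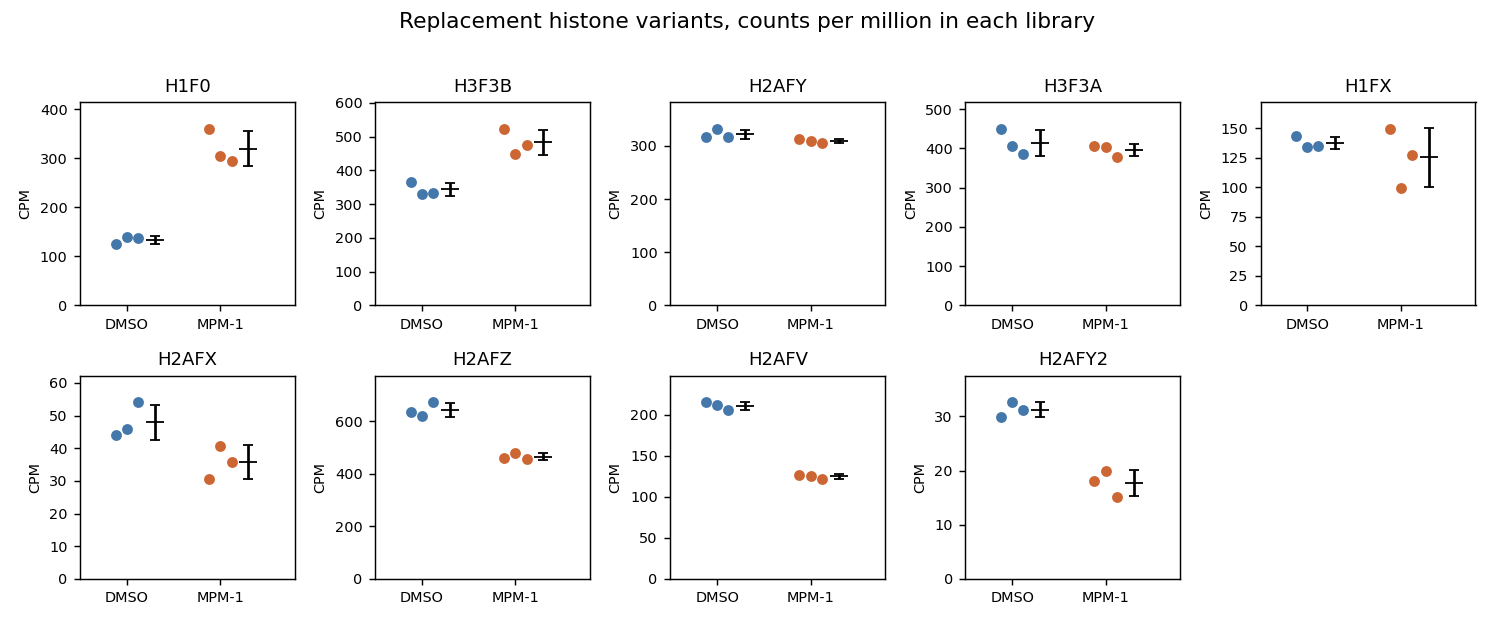
CPM (vertical axis of each panel, from 0) of the 9 replacement variants in the 3 DMSO libraries (blue) and 3 MPM-1 libraries (orange), ordered by log2 fold change, with replicates 1 to 3 from left to right and the mean ± SD in black. H1F0 and H3F3B lie higher in every MPM-1 library, and H2AFX, H2AFZ, H2AFV, H2AFY2 and, by a narrow margin, H2AFY lower in every one.

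Ordered by FPKM in DMSO, the levels were H2AFZ (670 ± 32.2), H3F3A (374 ± 9.77), H2AFY (161 ± 4.86), H3F3B (133 ± 3.71), H2AFV (116 ± 4.64), H1FX (93.4 ± 1.67), H1F0 (58.3 ± 4.64) and H2AFX (31.6 ± 3.73), all replacement variants. HIST1H2BK (17.6 ± 1.98) and H2AFY2 (16.1 ± 0.996) came next and were within their spread of each other, followed by the other 12 clustered genes, from 9.89 to 0.43 FPKM. After MPM-1, H1F0 (125 ± 11.9 FPKM) was above H1FX (76.3 ± 13.7 FPKM) and close to H2AFY (139 ± 2.24 FPKM). HIST1H2BK, HIST2H2AA3, HIST2H2AA4, HIST1H1C and HIST3H2A, at 43.9 to 24.5 FPKM, stood above H2AFX (20.6 ± 3.47 FPKM) and H2AFY2 (8.22 ± 1.20 FPKM). This order covers only the histone genes in the table and may depend on which transcripts the libraries captured.

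Genes that make, process and deposit histones were then read from the same fit, and the count of each list stands against the 27.7% of all genes that rose and the 28.8% that fell. CENPA, the H3 variant of centromeres, which lies outside the symbol rule, fell from 26.4 ± 1.34 to 7.53 ± 0.816 CPM (SD, n = 3 each), a log2 fold change of -1.81 (adjusted p = 4.87e-06). Of 14 chaperones that act with replication, 7 fell (28.8% of all genes), none rose (27.7%) and 7 did not pass, with a median log2 fold change of -0.54. The largest falls were in ASF1B (-1.86), an H3-H4 chaperone, MCM2 (-1.50), a helicase subunit that also holds histones at the fork, and CHAF1B (-0.89), a subunit of CAF-1. Of 18 chaperones and remodelers of histone variants, 7 fell and 4 rose (median -0.15), near the shares of all genes. MIS18A (-1.24) and OIP5 (-1.12), which prime centromeres for CENP-A, were among those that fell, and SUPT6H (0.49), ATRX (0.36) and VPS72 (0.33) rose. HIRA, which deposits H3.3, fell (-0.60), as did ANP32E, which removes H2A.Z (-0.46), and both are named here after their values were seen.

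Of 9 genes that act in transcription at the histone locus body, the nuclear site where the clustered genes are transcribed, 2 rose and 3 fell (median -0.037), near the 27.7% and 28.8% of all genes. CCNE1, a cyclin E gene, rose (0.74) with GON4L (0.55), and CCNE2, the other cyclin E gene, fell (-1.41) with CASP8AP2 (-1.13), which encodes the processing factor FLASH, and CDK2 (-0.65). NPAT, the coactivator of clustered histone genes, was at 18.5 ± 0.463 CPM in DMSO and 14.7 ± 2.70 CPM after MPM-1 (log2 fold change -0.33, adjusted p = 0.0817). Of 11 genes of 3′ end processing and turnover of histone transcripts in the table, 2 rose and 5 fell (median -0.19), against 27.7% and 28.8% of all genes. ZNF473 (-0.58), CSTF2 (-0.56) and UPF1 (-0.50) fell, and LSM10 (0.36) and LSM1 (0.28) rose. SLBP was at 124 ± 5.51 CPM in DMSO and 120 ± 4.80 CPM after MPM-1 (log2 fold change -0.050, adjusted p = 0.587). Of 42 S phase markers that were measured, 37 fell and none rose (median -0.93), against 28.8% and 27.7% of all genes, with UHRF1 (-2.09), BLM (-1.76) and E2F8 (-1.61) lowest. This list shares SLBP, CCNE2, CASP8AP2, NASP, MCM2 and CHAF1B with the lists above. The share of S phase cells was not measured in these libraries, and its part in the changes of the histone genes was not tested.

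**Figure D5:**
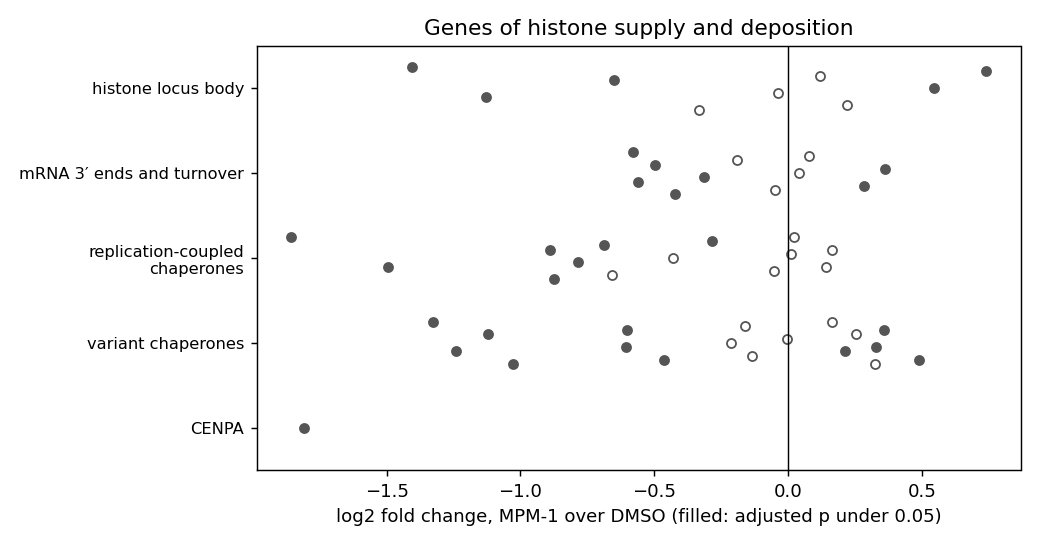
Log2 fold change after MPM-1 against DMSO (horizontal axis) of genes of the histone locus body, of histone transcript 3′ ends and turnover, of replication-coupled and variant chaperones, and of CENPA, with 1 circle per gene, filled where the adjusted p was under 0.05; the vertical offset within a row only separates the circles. All 7 filled circles of the replication-coupled chaperones lie below 0, and the other 3 lists hold filled circles on both sides.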

How the data were processed

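RNA was sequenced in 6 SW480 libraries (3 DMSO, 3 MPM-1) and grouped by the sample titles. The authors deposited raw counts per gene (whole numbers, not normalized) and FPKM (fragments scaled by transcript length and library size) for 12982 genes, each with a total of at least 115 counts. Their notes name HISAT2, DESeq2 and the mouse build mm10, although the identifiers are human. The counter, annotation and strand setting are not given in the sources used here. The deposited fold changes and FDR were not used, and 0 columns of per-sample values were left out. Coordinates and transcripts came from GENCODE release 29 (GRCh38) by Ensembl identifier, and promoters from RefSeq (GRCh38.p14).

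R 4.3.3 with edgeR 4.0.16 (TMM, quasi-likelihood test, Benjamini-Hochberg) was run on all genes without a further filter. Alternatives used limma 3.58.1 on log2(FPKM + pseudocount) and DESeq2 1.42.0. Tested on simulated counts of all 12982 genes, the comparison recovered 194 of 200 genes changed by 2 on the log2 scale, with 13 false calls. Far fewer genes were changed there than the 56.5% that passed in the data. The simulation therefore did not probe scaling under wide change, nor smaller fold changes. All replicates differed beyond sampling noise (chi-square per gene of 15.4 to 33.2). The members and gene lists were chosen with earlier results of these data known. Every histone gene is named or counted, and from each list the 3 largest rises and falls that passed, with SLBP, NPAT and CENPA. One gene that this rule names is not reported here. Protein sequences were not used here.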

Additional observations from a re-analysis of the deposited data

How the results depend on the processing

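The number of clustered genes that rose was 8 to 9 in the alternatives that were run, and none fell except that 1 (HIST1H3E) was lower without MPM-1 replicate 2, so that this count ranged from 0 to 1 with each library left out. The clustered median log2 fold change was 1.70 with a mean of at least 50 counts, which removed the 3 lowest genes, and 1.22 with limma on log2(FPKM + 1) of all genes. With each library left out it ranged from 1.35 to 1.51. For the replacement variants, the stricter limit (adjusted p under 0.01 and an absolute log2 value of 1 or more) left 0 lower and 1 higher, and 6 were lower with library size alone and with limma. Their median was -0.29 with library size alone, -0.30 with limma on log2(FPKM + 1), with and without a filter, -0.31 with a pseudocount of 0.1, and between -0.26 and -0.055 with each library left out. H1FX turned to 0.0301 without MPM-1 replicate 2. Of the other values of single genes, 309 kept their direction and side of the threshold, 9 passed only in the alternative (H2AFY and H3F3A with library size alone and limma, HIST1H3E without MPM-1 replicate 2) and 1 did not (H2AFX, above); the cause was not tested. Deviations of libraries with the same replicate number correlated at -0.104 to 0.104, and DMSO replicate 1 correlated best with MPM-1 replicate 3, so the numbers were not taken to pair the samples. With the replicate number as a block, 3475 genes were higher and 3642 lower, and the same numbers of clustered (9 higher) and replacement genes (2 higher, 4 lower) passed. Counts below about 50 limited HIST1H3E, HIST1H3H and HIST1H2BN.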
